A study of Mus musculus with 7 samples.

Results

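Genes for proteins secreted by the early liver and by the visceral endoderm were followed across 7 whole mouse embryos, together with a few regulators that mark the same cells. The set was a named list of 34 genes, of which 33 had a row among the 25461 genes of the deposited table, and Fetub was not analysed here. A filter on low values, which asked for an average of 1 FPKM or more, kept 31 of them among 16095 genes tested, leaving out Apoa4 (mean 0.309 FPKM) and Proc (mean 0.653 FPKM). FPKM counts fragments relative to transcript length and library depth and is thus a level per length, so that genes can be set side by side.

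Hepatoblasts are the progenitors of hepatocytes and bile duct cells. They bud from the foregut endoderm into the septum transversum, and they begin to secrete plasma proteins long before the liver takes up most of its metabolic work. The visceral endoderm of the yolk sac secretes many of the same proteins earlier in development, alpha-fetoprotein and transferrin among them, and nuclear receptors such as HNF4A act on this class of genes in the liver.

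The embryos were E11.5, of strain B6C3F1, and comprised 3 SLMAP3 KO (KOAC8-6, KOAC10-5 and KOAC10-8) and 4 WT (KOAC8-1, KOAC9-1, KOAC10-7 and KOAC10-2). SLMAP3 is the longest protein isoform of Slmap. Its loss was global: an allele with loxP sites was cut in mice carrying CMV-cre, the cre was bred out, and heterozygous animals were mated, so that KO and WT embryos alike carried no cre. By the study's Western blots of E11.5 embryos, the shorter isoforms SLMAP1 and SLMAP2 remained in the KO. Each library was made with the Illumina TruSeq RNA v2 kit from total RNA of 1 embryo whose tail had been taken for genotyping, and nothing in the labels says whether embryos with the same prefix (KOAC8, KOAC9, KOAC10) were littermates, so p-values measure the spread between these embryos only. Neither the labels nor the methods used here describe how much of the extraembryonic membranes was taken with an embryo.

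Slmap, all isoforms together, was at 16.0 to 19.6 FPKM in the KO and 22.8 to 31.2 FPKM in the WT embryos, which did not overlap. By estimate, the embryos had 54400000 to 81500000 counts on genes each, and the lowest and highest embryo both lay among the WT. Afp split the embryos far from the boundary of 50 FPKM that was used to describe the set: 3 embryos reached at most 5.18 FPKM, and the other 4 had at least 255 FPKM. The 3 with low Afp were 1 KO (KOAC10-5) and 2 WT (KOAC10-7 and KOAC10-2). All 3 carry the prefix KOAC10, as does the KO embryo KOAC10-8, which had 308 FPKM. Because the split was made on a measured value, and on a gene of the set itself, it is described here without a test.

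Promoter sequence was read for the members from the RefSeq table of GRCm38.p6, in windows of 250 bases before to 50 bases after each start site, and 28 of the 33 measured members had a window. The letters GTTAAT, a short core found in many promoters of liver genes, were searched on both strands, where the reverse strand reads ATTAAC, and a palindromic site can hold both. They occurred in the windows of 11 of the 28 members (39.3%), against 8.24% of the 27025 genes with a window. These 11 were Afp, Alb, Apoc2, Apoe, F2, Fga, Fgb, Hnf4a, Serpina1a, Serpina1b and Vtn. Of 21 members whose lowest level among the other 4 embryos was at least 5 times their highest level in the low-Afp embryos, 9 held the core, as did 2 of the 7 remaining members, Apoe and Vtn. The HNF4A letters CAAAGTCCA were in 0 of the 28 windows (0.555% of genes), and the TATA letters TATAAA, were in 7 of 28 windows, against 15.7% of genes. A match is a description of the letters and was not tied to a bound factor, and no match says only that these letters are not in this window.

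The windows of Alb, Afp, Fgb and Serpina1a are printed because these members differed widely between embryos and hold the core before the start site, and that of Apoa4, which followed another pattern, is printed beside them, all 5′ to 3′ on the gene's strand with GTTAAT or ATTAAC in capitals. Those of Alb (chr5:90460620-90460919, plus strand) and Afp (chr5:90490464-90490763, plus strand) lie in front of neighbouring genes. The core begins at -32 in Alb and -105 in Afp, counted from the RefSeq start site of the window. Those of Fgb (chr3:83049814-83050113, minus strand) and Serpina1a (chr12:103863570-103863869, minus strand) have the core at -29 and -21. In GENCODE M21, Alb starts at 90460897, Afp at 90490737 and Serpina1a at 103863562, all downstream of the RefSeq starts used here. Counted from those starts, the core of these genes lies further upstream, and the Serpina1a window ends short of its GENCODE start. The window of Apoa4 (chr9:46240594-46240893, plus strand) held none. In GENCODE M21, Apoa4 starts at 46240696, so that much of this window lies inside the gene. Bases further upstream of that start were not searched.
Alb: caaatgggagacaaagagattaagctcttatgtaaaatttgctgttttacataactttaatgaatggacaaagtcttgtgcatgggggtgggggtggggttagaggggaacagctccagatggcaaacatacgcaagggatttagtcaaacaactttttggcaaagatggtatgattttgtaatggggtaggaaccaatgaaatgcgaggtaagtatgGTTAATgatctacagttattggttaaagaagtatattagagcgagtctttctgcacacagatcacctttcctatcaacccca
Afp: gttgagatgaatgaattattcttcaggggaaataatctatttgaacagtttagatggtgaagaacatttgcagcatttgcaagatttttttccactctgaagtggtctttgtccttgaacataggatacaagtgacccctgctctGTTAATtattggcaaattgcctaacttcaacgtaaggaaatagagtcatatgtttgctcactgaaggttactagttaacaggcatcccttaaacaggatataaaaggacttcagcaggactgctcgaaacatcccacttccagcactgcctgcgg
Fgb: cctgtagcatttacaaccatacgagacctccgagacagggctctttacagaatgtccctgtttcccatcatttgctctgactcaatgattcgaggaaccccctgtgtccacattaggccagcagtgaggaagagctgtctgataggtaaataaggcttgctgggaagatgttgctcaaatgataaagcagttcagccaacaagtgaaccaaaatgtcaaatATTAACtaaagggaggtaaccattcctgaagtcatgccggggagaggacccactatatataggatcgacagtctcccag
Serpina1a: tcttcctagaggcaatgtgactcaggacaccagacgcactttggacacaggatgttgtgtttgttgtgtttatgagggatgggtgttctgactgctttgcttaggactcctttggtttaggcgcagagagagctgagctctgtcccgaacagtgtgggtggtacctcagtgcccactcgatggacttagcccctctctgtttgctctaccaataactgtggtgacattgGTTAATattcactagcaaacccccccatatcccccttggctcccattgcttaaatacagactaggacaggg
Apoa4: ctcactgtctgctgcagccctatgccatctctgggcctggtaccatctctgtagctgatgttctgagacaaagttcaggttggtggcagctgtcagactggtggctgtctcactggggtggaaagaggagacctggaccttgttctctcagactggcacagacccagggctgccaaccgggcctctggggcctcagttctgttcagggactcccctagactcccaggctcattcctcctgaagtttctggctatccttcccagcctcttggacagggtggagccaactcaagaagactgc

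The set moved between embryos nearly as a whole. Of the 33 measured members, 30 were lower in each of the 3 low-Afp embryos than in each of the other 4, an ordering found in 6.24% of all 25461 genes, and 0 members were higher. The exceptions were Apoa4, Mttp and Dlk2. In 22 members the lowest value among the other embryos was at least 10 times the highest value in the low-Afp embryos, in 26 members at least 5 times, and 20 members stayed under 1 FPKM in every low-Afp embryo. The counts of 30, 26 and 22 include Afp, on which the split was made. The shares of all genes at these ratios were not counted. Summed over the members, the low-Afp embryos held 99.0 to 139 FPKM and the others 783 to 1276 FPKM. Since whole embryos were sequenced, fewer cells of a type and less RNA per cell cannot be told apart in any of these values.

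**Figure D1:**
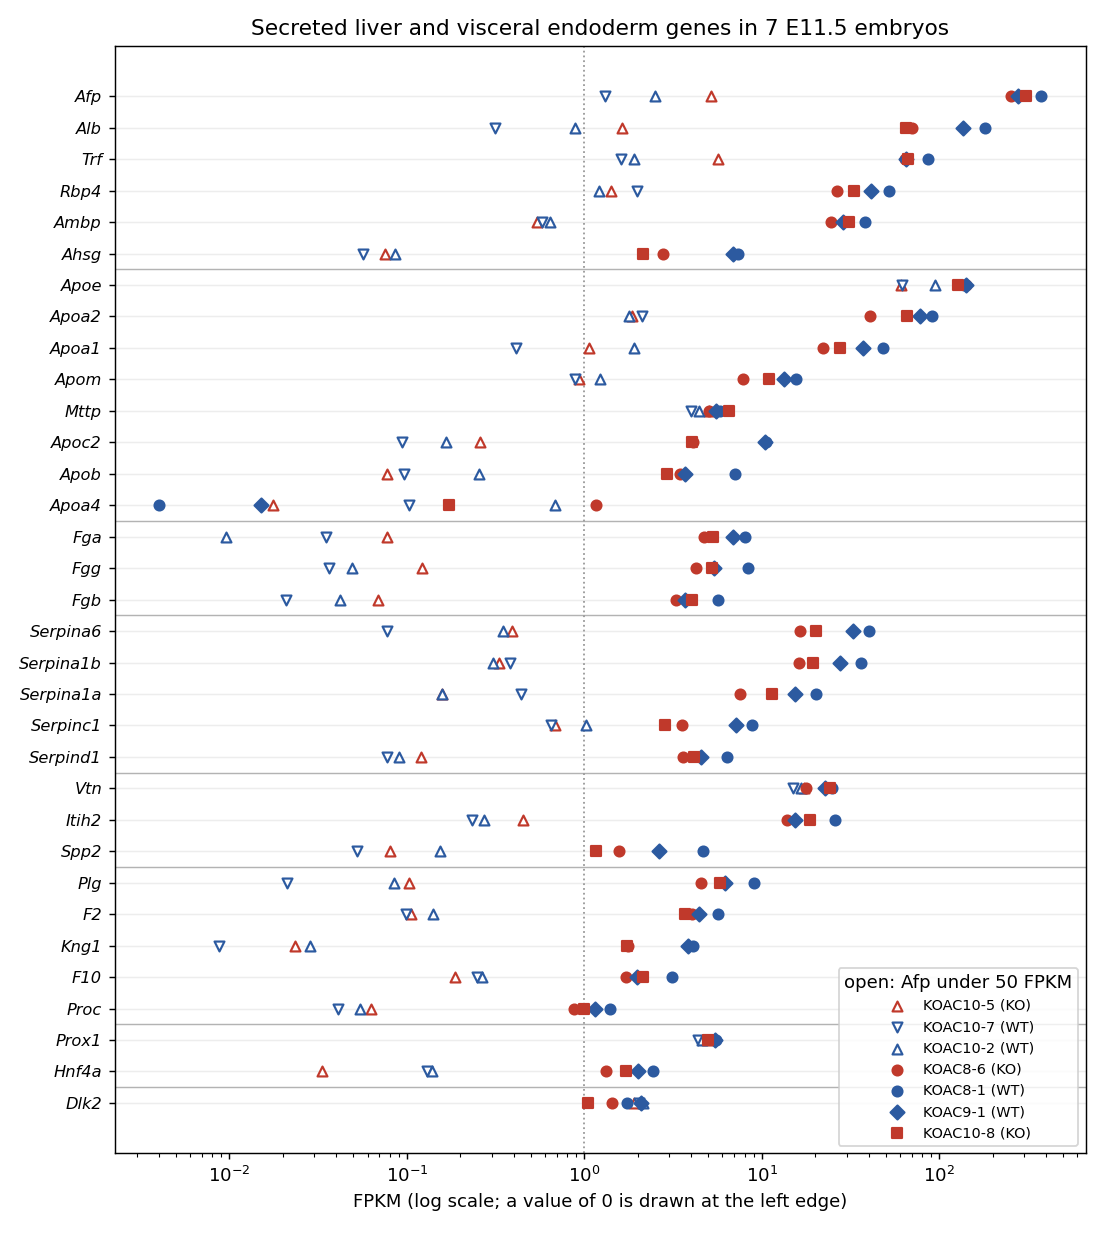
Level of each of the 33 measured members in FPKM (log axis) in each of the 7 embryos, with open symbols for the 3 embryos with Afp under 50 FPKM and filled symbols for the other 4. For 30 members all open symbols lie to the left of all filled ones, while Apoa4, Mttp and Dlk2 overlap.

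Afp encodes alpha-fetoprotein, the main serum protein of the fetus, and it had the highest level of all members in each of the 4 embryos with at least 255 FPKM. It stood at 255 FPKM in KOAC8-6 and 308 FPKM in KOAC10-8 among the KO, and at 376 FPKM in KOAC8-1 and 278 FPKM in KOAC9-1 among the WT. It stood at 5.18 FPKM in the KO KOAC10-5, 1.30 FPKM in the WT KOAC10-7 and 2.49 FPKM in the WT KOAC10-2. The low-Afp embryos still had an estimated 130 to 669 counts on the gene, so that their levels are not limited by counting.

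Albumin, the protein that replaces it in later life, followed the same split. Alb was at 70.4 and 65.2 FPKM in the KO KOAC8-6 and KOAC10-8, and at 180 and 136 FPKM in the WT KOAC8-1 and KOAC9-1. In KOAC10-5, KOAC10-7 and KOAC10-2 it was at 1.63, 0.313 and 0.885 FPKM. The genes lie next to each other on chromosome 5 on the same strand (GRCm38, Alb at 90460897 to 90476602 and Afp at 90490737 to 90508907), with 14.1 kb between them. Per 100 FPKM of Afp, Alb was at 27.6 and 21.2 FPKM in these KO and 47.9 and 48.8 FPKM in these WT embryos, and at 31.5, 24.0 and 35.5 FPKM in KOAC10-5, KOAC10-7 and KOAC10-2. The ratio of Alb to Afp thus ran from 21.2 to 48.8 FPKM per 100 FPKM, while both levels differed many times over.

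The carriers of iron, retinol and small ligands were split in the same way. Trf, transferrin, was at 63.9 and 66.2 FPKM in the KO and 86.5 and 64.5 FPKM in the WT embryos with high Afp, against 5.65 FPKM in KOAC10-5, 1.61 FPKM in KOAC10-7 and 1.90 FPKM in KOAC10-2. Rbp4, which carries retinol, was at 26.5 to 51.8 FPKM in the 4 embryos and 1.21 to 1.97 FPKM in the low-Afp embryos. Ambp, the precursor of alpha-1-microglobulin and bikunin, was at 24.5 to 37.9 FPKM and 0.544 to 0.643 FPKM. For these genes no value of one class of embryos reached the other. In the transcript sequences of GENCODE M21, 59.4% of the 50-base stretches of Trf are shared with other genes, most of them with the overlapping Gm20425, so its level is uncertain to that extent.

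Ahsg and Serpina6 belong to the same group of plasma proteins at a lower or similar level. Ahsg, which encodes fetuin-A, an inhibitor of mineral deposition, was at 2.78 and 2.15 FPKM in the KO KOAC8-6 and KOAC10-8, 7.33 and 6.85 FPKM in the WT KOAC8-1 and KOAC9-1, and at most 0.0858 FPKM in the low-Afp embryos. Serpina6, corticosteroid-binding globulin, was at 16.4 and 20.3 FPKM, 40.1 and 32.5 FPKM, and at most 0.389 FPKM. The low-Afp embryos held at most 5.48 estimated counts of Ahsg and 39.1 of Serpina6.

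Among the apolipoproteins, which carry lipid in plasma, members of the set behaved differently. Apoa1 and Apoa2, the main proteins of high-density lipoprotein, were at 22.0 to 47.9 FPKM and 40.5 to 91.0 FPKM in the 4 embryos and at 0.410 to 1.90 FPKM and 1.78 to 2.10 FPKM in the low-Afp embryos. Apob, the structural protein of low-density lipoprotein, was at 2.93 to 7.02 FPKM and 0.0773 to 0.255 FPKM, and Apom, a minor protein of high-density lipoprotein, at 7.88 to 15.5 FPKM and 0.880 to 1.23 FPKM. These 4 were split as Afp was.

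Apoc2, the cofactor of lipoprotein lipase, was at 4.12 and 4.06 FPKM in the KO KOAC8-6 and KOAC10-8 and at 10.45 and 10.35 FPKM in the WT KOAC8-1 and KOAC9-1. In the low-Afp embryos it was at 0.257, 0.0936 and 0.167 FPKM, and those libraries held at most 6.86 estimated counts each. Of its 50-base stretches, 78.3% are shared with the read-through gene Gm44805, which was not analysed here.

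Apoe, made by many cell types besides hepatocytes, stood at 142, 127, 137 and 141 FPKM in KOAC8-6, KOAC10-8, KOAC8-1 and KOAC9-1 and still at 60.6, 61.7 and 94.7 FPKM in KOAC10-5, KOAC10-7 and KOAC10-2. Its groups did not overlap, but the lowest of the 4 was only 1.34 times the highest of the 3. Apoe lies 18.2 kb from Apoc2 on chromosome 7 on the same strand, where the same ratio was 15.8.

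Apoa4, an apolipoprotein of the intestine and yolk sac, did not follow the split. It was at 1.17 FPKM in KOAC8-6, 0.172 FPKM in KOAC10-8, 0.0151 FPKM in KOAC9-1 and 0 FPKM in KOAC8-1, and at 0.0175, 0.103 and 0.683 FPKM in KOAC10-5, KOAC10-7 and KOAC10-2. The highest values were thus in a KO embryo with high Afp and a WT embryo with low Afp. Apoa1, 10230 bases away on chromosome 9 and on the same strand, was split as Afp was. Mttp, the transfer protein that loads lipid onto apolipoprotein B, was nearly level, at 5.04 to 6.55 FPKM in the 4 embryos and 4.01 to 5.07 FPKM in the low-Afp embryos, which overlapped by a small margin.

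The fibrinogen chains, which form the clot, had some of the widest splits. Fga was at 4.74 to 8.08 FPKM in the 4 embryos and 0.00961 to 0.0776 FPKM in the low-Afp embryos, with the lowest of the 4 at 61.1 times the highest of the 3. Fgb was at 3.30 to 5.66 FPKM and 0.0207 to 0.0683 FPKM (48.3 times), and Fgg at 4.25 to 8.37 FPKM and 0.0364 to 0.122 FPKM (34.7 times). The 3 genes lie together on chromosome 3, with 11027 bases between Fgg and Fga and 6514 bases between Fga and Fgb, which is on the opposite strand. Their low values rest on 1.06 to 17.0 estimated counts per embryo, so the ratios are loosely set.

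The other clotting genes did the same at low levels. F2, prothrombin, was at 3.68 to 5.67 FPKM in the 4 embryos and 0.0990 to 0.140 FPKM in the low-Afp embryos, and F10, factor X, at 1.71 to 3.11 FPKM and 0.187 to 0.266 FPKM. Plg, plasminogen, which dissolves the clot, was at 4.54 to 9.08 FPKM and 0.0210 to 0.103 FPKM. Proc, the anticoagulant protein C, was at 0.875 to 1.40 FPKM and 0.0408 to 0.0627 FPKM. Kng1, the precursor of kinins, was at 1.77 and 1.74 FPKM in the KO KOAC8-6 and KOAC10-8, 4.11 and 3.83 FPKM in the WT KOAC8-1 and KOAC9-1, and at most 0.0283 FPKM in the low-Afp embryos, where at most 3.14 estimated counts leave no firm ratio.

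Protease inhibitors of the serpin and inter-alpha-trypsin families also divided by Afp, except that Serpinc1 divided less. Serpina1b and Serpina1a, which encode alpha-1-antitrypsin, were at 16.3 to 36.1 FPKM and 7.52 to 20.2 FPKM in the 4 embryos and at most 0.382 and 0.441 FPKM in the low-Afp embryos. Because 57.6% of the 50-base stretches of Serpina1a and 29.5% of those of Serpina1b are shared with other genes, mostly of their own family, the sum over the 5 Serpina1 genes is the firmer value. The sum reached 27.2 and 34.9 FPKM in the KO KOAC8-6 and KOAC10-8, 66.5 and 49.99 FPKM in the WT KOAC8-1 and KOAC9-1, and 0.567, 1.22 and 0.647 FPKM in KOAC10-5, KOAC10-7 and KOAC10-2, so the split and the order within the 4 held for the family.

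Serpind1, heparin cofactor II, was at 3.58 to 6.38 FPKM in the 4 embryos and 0.0776 to 0.120 FPKM in the low-Afp embryos. Itih2, a heavy chain of the inter-alpha-trypsin inhibitor, was at 13.9 to 26.0 FPKM and 0.234 to 0.453 FPKM. Serpinc1, antithrombin, was at 3.54 and 2.85 FPKM in the KO KOAC8-6 and KOAC10-8, 8.80 and 7.11 FPKM in the WT KOAC8-1 and KOAC9-1, and 0.685, 0.652 and 1.02 FPKM in KOAC10-5, KOAC10-7 and KOAC10-2. Its lowest value among the 4 was 2.80 times its highest among the 3, against 29.8 times for Serpind1 and 30.8 times for Itih2.

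Spp2, a secreted phosphoprotein of liver and bone, was at 1.56 and 1.16 FPKM in the KO KOAC8-6 and KOAC10-8, 4.65 and 2.63 FPKM in the WT KOAC8-1 and KOAC9-1, and at most 0.153 FPKM in the low-Afp embryos. Vtn, the adhesion protein vitronectin, was almost even, at 17.8 to 24.7 FPKM in the 4 embryos and 14.9 to 17.3 FPKM in the low-Afp embryos. Its groups were ordered but nearly touched, with 1.03 times between the nearest values.

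The regulators in the set parted from each other. Hnf4a, the nuclear receptor of hepatocytes, was at 1.32 and 1.71 FPKM in the KO KOAC8-6 and KOAC10-8, 2.45 and 2.00 FPKM in the WT KOAC8-1 and KOAC9-1, and 0.0332, 0.129 and 0.138 FPKM in KOAC10-5, KOAC10-7 and KOAC10-2. Prox1, a homeobox factor of hepatoblasts that is also made in lymphatic endothelium, lens and nervous system, was at 4.98 to 5.52 FPKM in the 4 embryos and 4.35 to 4.91 FPKM in the low-Afp embryos, 1.01 times apart. Dlk2, a relative of the Notch ligand family, went the other way without a clean split, at 1.05 to 2.09 FPKM in the 4 embryos and 1.90 to 2.13 FPKM in the low-Afp embryos.

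Further lists were counted to see which other genes had the same ordering. Of 30 other plasma protein genes in the table, 23 were lower in all 3 low-Afp embryos, such as Serpinf2, alpha-2-antiplasmin, at 0.284 to 0.348 FPKM against 13.4 to 25.3 FPKM, and C3, the central complement component, at 0.119 to 0.234 FPKM against 2.50 to 5.31 FPKM. Of 11 liver metabolic enzymes 4 were lower, among them Fabp1 and Gys2. Of 19 liver transcription factors and hepatoblast surface or keratin genes 8 were lower, among them Foxa3, Hhex and Cebpa. Hhex, an early factor of the liver bud, was at 2.06 to 2.29 FPKM against 3.28 to 3.69 FPKM. The ordering was found in 6.24% of all genes, and whether its share differs between these lists was not tested.

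Markers of other tissues were counted the same way. Of 8 macrophage, 8 gut, lung and pancreas, 7 heart, 5 mesonephros and 3 trophoblast genes in the table, 0 were lower in every low-Afp embryo, and the trophoblast genes summed to at most 0.964 FPKM. Of 8 visceral endoderm and yolk sac genes 1 was lower, Pla2g12b, and their sum was 59.2 to 64.1 FPKM in the low-Afp embryos and 61.7 to 76.6 FPKM in the others. The defining genes Amn and Cubn, the receptor complex of that epithelium, were at 0.181 to 0.410 FPKM and 0.157 to 0.235 FPKM over all 7 embryos, and Rhox5 at 0.624 to 1.62 FPKM. Amn and Cubn were thus near 0 in embryos of either class, and their ranges overlapped between the classes. Other genes of this list were higher over the 7 embryos, and their ranges overlapped too. Dab2 was at 29.7 to 48.3 FPKM, Cited1 at 17.8 to 24.5 FPKM, Sox17 at 4.24 to 6.19 FPKM and Lrp2 at 1.05 to 1.74 FPKM. Of 12 definitive erythroid genes, which are made in the blood-forming fetal liver, 4 were lower in all 3 low-Afp embryos, among them Klf1, Gata1 and Rhag. Whether the amount of liver sampled differed between the embryos was not tested.

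**Figure D2:**
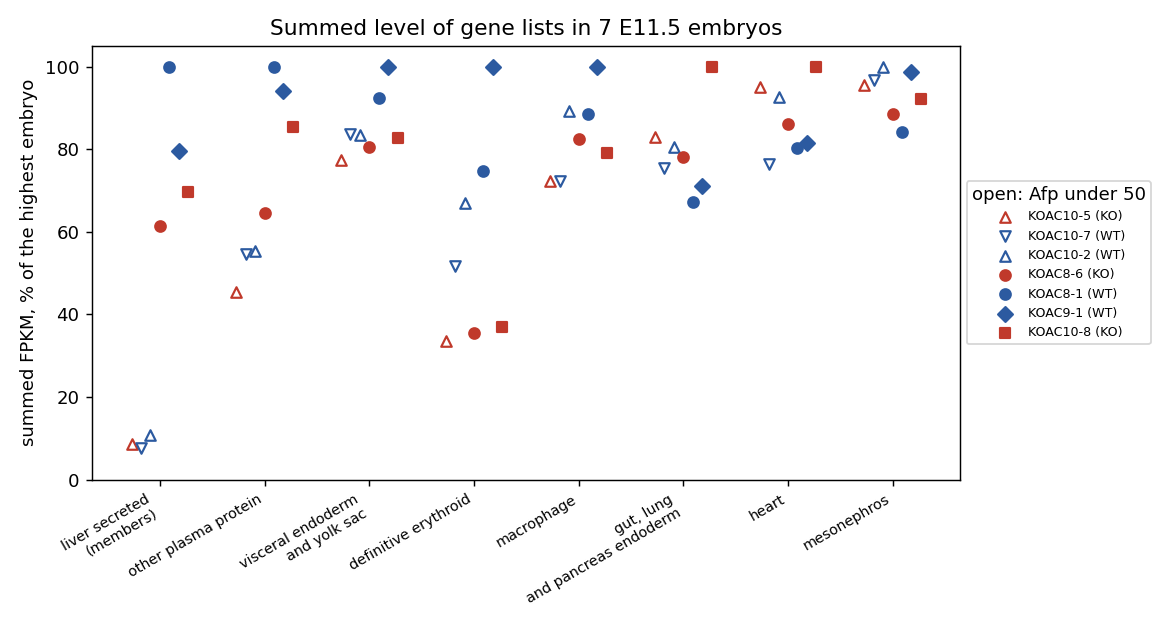
Summed FPKM of 8 gene lists in each of the 7 embryos, as a percentage of the highest embryo for that list, with open symbols for embryos with Afp under 50 FPKM. The secreted liver genes summed to 99.0 to 139 FPKM in the 3 open embryos and 783 to 1276 FPKM in the other 4, while the sums of the heart, mesonephros and macrophage lists overlapped between the classes.

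The comparison of KO and WT over all 7 embryos asked whether loss of SLMAP3 changed the genes. By limma on log2(FPKM + 1), a scale that understates differences of low genes, 6 of the 16095 genes had an adjusted p under 0.05 (0.0373%, or 12 genes without KOAC8-1), and 0 of the 31 members tested did. Also 0 members had an unadjusted p under 0.05, against 1846 of all genes. KO against WT, the log2 fold change was below 0 in 9 members and above 0 in 22, with a median of 0.17 against 0.01 over all genes. For Afp it was 1.38 ± 2.34 (SE, adjusted p = 0.847), for Alb 0.56 ± 2.19 (adjusted p = 0.939) and for Serpinc1 -0.39 ± 0.73 (adjusted p = 0.865). Each genotype held embryos of both Afp classes, and in these 3 genes the standard error exceeded the difference. The median and its direction turned with single embryos. It was -0.19 without KOAC8-6, -0.24 without KOAC10-8, -0.30 without KOAC10-7 and -0.28 without KOAC10-2, and it was 0.90 without KOAC10-5, 0.67 without KOAC8-1 and 0.55 without KOAC9-1. With the Afp class as a block it was -0.27, with 28 of 31 members below 0, and with the label prefix as a block it was 0.55, with 28 of 31 above 0. Dlk2, the member with the smallest p, had a log2 fold change of -0.30 ± 0.13 (SE, adjusted p = 0.438), and in the exact permutation test over the 35 splits of the embryos, two-sided, it reached p = 0.0857 with the other members at 0.371 or more.

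Among the 4 embryos with high Afp, 2 KO and 2 WT, the set leaned to lower levels in the KO. Both KO values were below both WT values in 23 of the 33 members, an ordering found in 21.8% of all genes, and above both in 1, Apoa4 (21.1% of all genes). By limma refitted on these embryos, 14 of the 16095 genes had an adjusted p under 0.05 (0.0870%, or 0 genes without KOAC10-8 and 29 without KOAC8-6) and again 0 of the 31 members. An unadjusted p under 0.05 with a lower level in the KO was found for 14 of the 31 members, against 6.14% of all genes, and for 9 without KOAC8-1. The log2 fold change was below 0 in 30 of the 31, Mttp being at 0.02 ± 0.14 (SE), and the median was -0.47 against 0.01 over all genes. It was -0.26 without KOAC8-1, which had the highest level of 29 of the 33 members. An exact permutation test of 2 against 2 cannot give a p below 0.333, and the comparison by limma borrows its spread from all genes. No member passed the threshold, so the differences below are given as values.

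**Figure D3:**
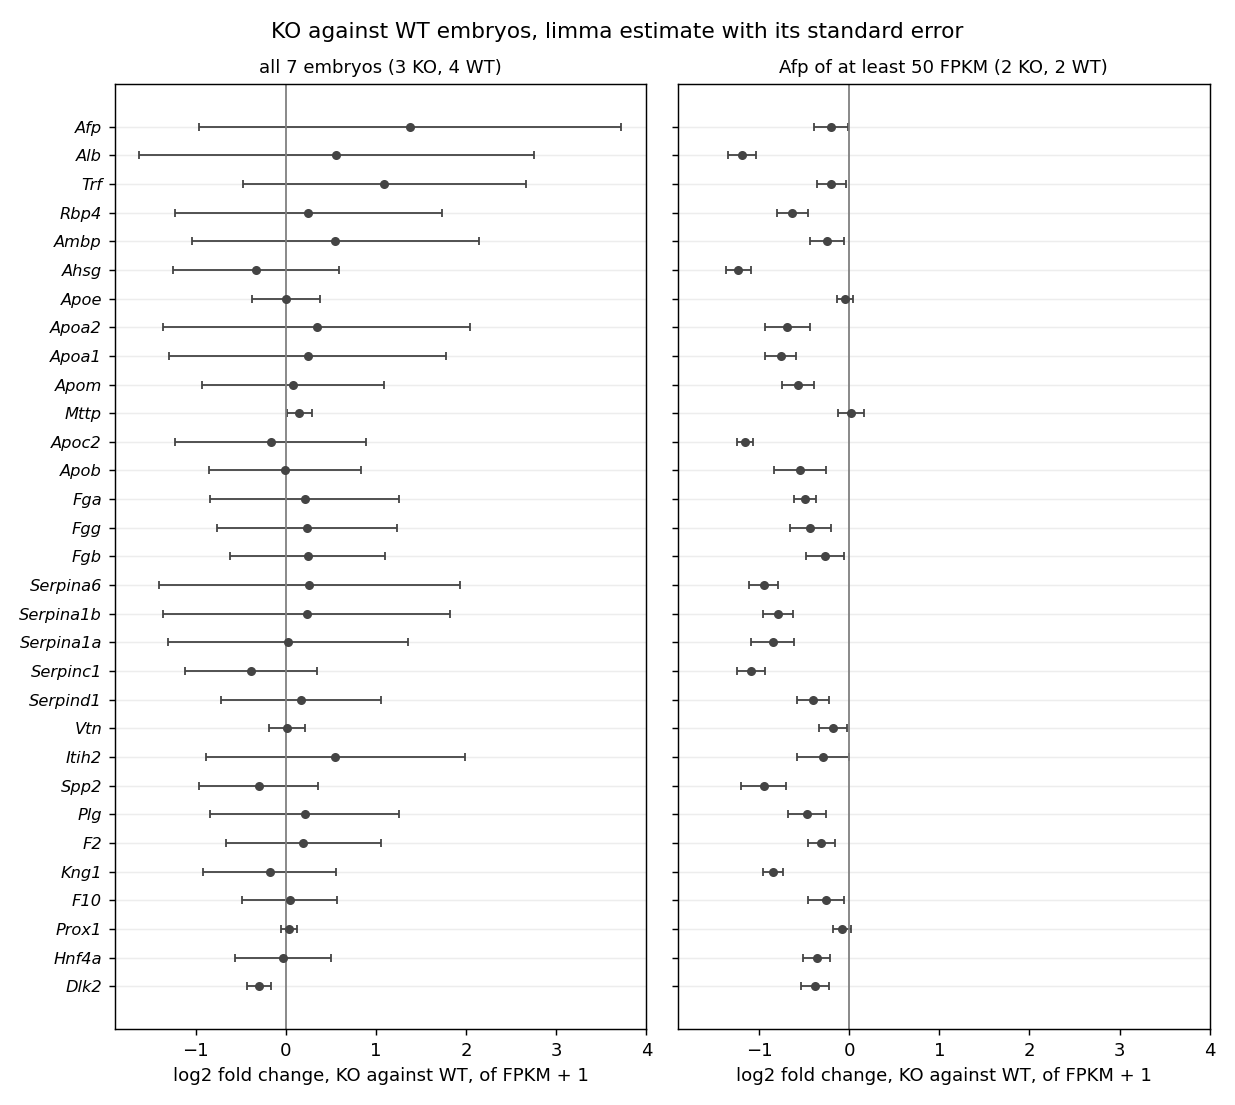
Log2 fold change of KO against WT for the 31 members tested, with its standard error from limma, over all 7 embryos and among the 4 embryos with Afp of at least 50 FPKM, on a common axis. The estimates have wide errors over 7 embryos, up to 2.34 for Afp, and lie below 0 for 30 of 31 members among the 4, with 0 of 31 passing the adjusted threshold in either.

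In 6 of 32 members, Apoa4 left out, the KO level was under 50% of WT, and from the lowest share upward these were Ahsg, Spp2, Apoc2, Serpinc1, Alb and Kng1. Ahsg was at 2.46 ± 0.445 FPKM (SD, n = 2) in the KO and 7.09 ± 0.340 FPKM in the WT with high Afp, a share of 34.7%, with a log2 fold change of -1.23 ± 0.14 (SE, limma adjusted p = 0.213). Apoc2 was at 4.09 ± 0.0462 and 10.4 ± 0.0707 FPKM (39.3%), with -1.16 ± 0.09 (SE) and the smallest adjusted p of all members, 0.103. Alb was at 67.8 ± 3.66 and 158 ± 31.3 FPKM (43.0%), with -1.19 ± 0.16 (SE, adjusted p = 0.275). In these 3 genes the gap between the genotypes was larger than the spread within either.

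Serpinc1 was at 40.2% of its WT level (-1.09 ± 0.16, SE, limma adjusted p = 0.307), Kng1 at 44.2% (-0.85 ± 0.11, adjusted p = 0.273) and Spp2 at 37.3% (-0.95 ± 0.25, adjusted p = 0.422). A further 19 members lay at 50 to 80% and 7 at 80% or more. Serpina6 was just over the boundary at 50.6% (-0.95 ± 0.16, adjusted p = 0.364). Among the 7 at 80% or more were Afp itself (86.2%, -0.20 ± 0.19, adjusted p = 0.701), Trf (86.2%), Ambp (83.3%), Vtn (88.4%), Prox1 (94.0%), Apoe (96.5%) and Mttp (102%). The members therefore did not share a single ratio between genotypes.

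Within the prefix KOAC8, which holds 1 KO and 1 WT embryo, KOAC8-6 was below KOAC8-1 in 31 of the 33 members, as it was in 50.1% of all genes. KOAC10 had no WT embryo with high Afp and KOAC9 a single WT embryo, so that neither gives a value of this kind. In the low-Afp embryos, all KOAC10, the KO embryo was below both WT in 7 members (8648 of all 25461 genes), above both in 15 (33.2% of all genes) and between them in 11. The lower KO levels were thus seen in embryos with high Afp, and the order in the low-Afp embryos cannot decide whether they held there. It rests on 1 KO embryo, and 14 of the 33 members had under 10 estimated counts in at least 1 low-Afp embryo. This KO embryo, KOAC10-5, also had more Afp, at 5.18 FPKM against 1.30 and 2.49 FPKM in the WT KOAC10-7 and KOAC10-2. Whether the Afp classes differ in the effect of genotype was not tested.

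Dividing each member by Afp of the same embryo, a step chosen after the data had been seen, left both KO below both WT in 22 of 32 members, above in 1 and overlapping in 9. Under the same division 5.66% of all genes had both KO below both WT and 25.8% had both above. These shares are set in part by Afp itself, which among these embryos was lowest in KOAC8-6 (255 FPKM) and highest in KOAC8-1 (376 FPKM). A gene at an even level thus had a higher ratio in the KO KOAC8-6 than in the WT KOAC8-1 and could not count as below. The 5.66% is therefore no like-for-like counterpart of the 21.8% without the division. Per 100 FPKM of Afp, Ambp was at 9.62 and 10.01 FPKM in the KO KOAC8-6 and KOAC10-8 and 10.08 and 10.29 FPKM in the WT KOAC8-1 and KOAC9-1, so that the genotypes nearly met. Trf was at 25.1 and 21.5 FPKM against 23.0 and 23.2 FPKM, which overlapped. Ahsg was at 1.09 and 0.697 FPKM against 1.95 and 2.47 FPKM, and Serpinc1 at 1.39 and 0.925 FPKM against 2.34 and 2.56 FPKM. Relative to Afp, then, the genotypes met or nearly met in Trf and Ambp and lay apart in Alb, Ahsg and Serpinc1.

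**Figure D4:**
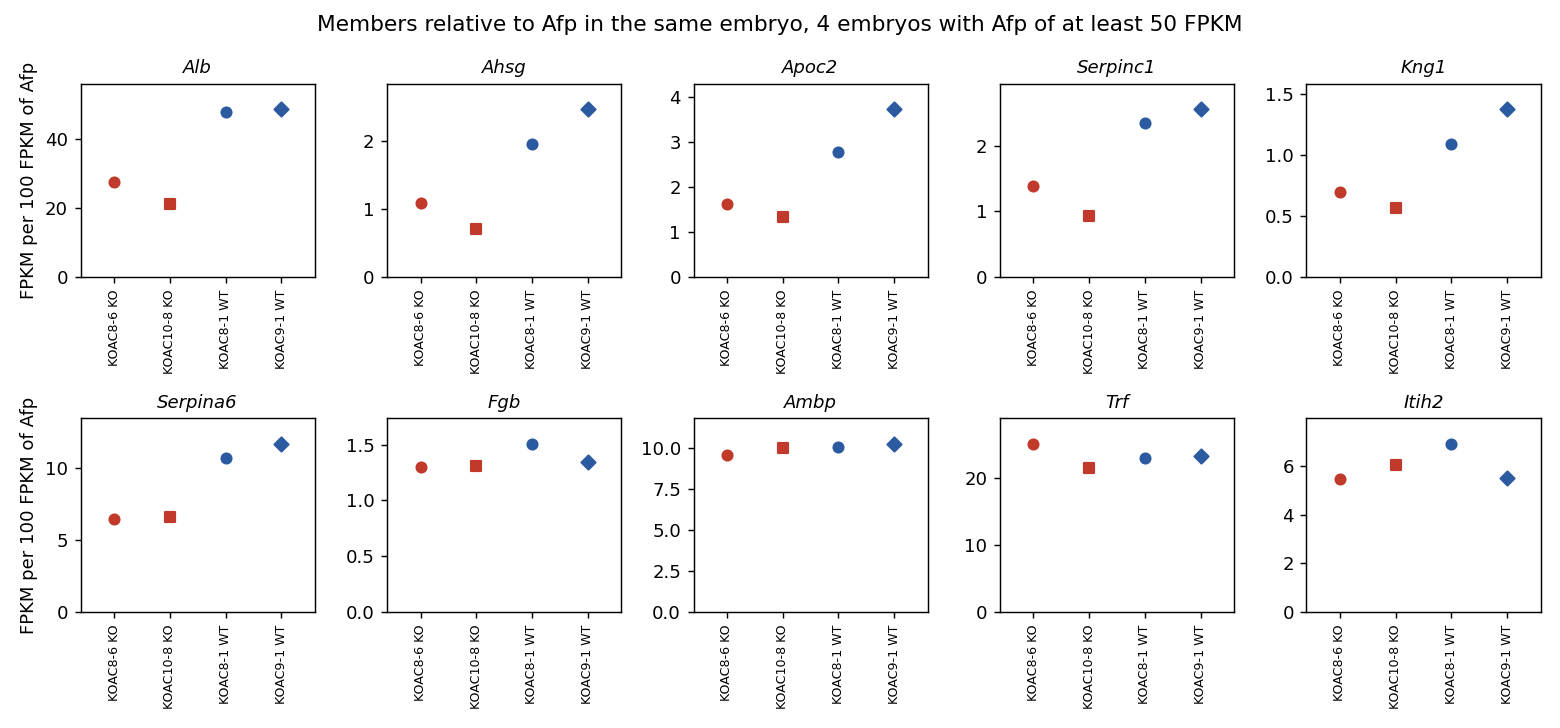
Level of 10 members, chosen after their values were seen, per 100 FPKM of Afp in the same embryo. Each symbol is 1 of the 2 KO and 2 WT embryos with Afp of at least 50 FPKM. Alb stands at 27.6 and 21.2 in the KO and 47.9 and 48.8 in the WT, while Ambp lies between 9.62 and 10.29 in all 4.

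Other genes differed between the genotypes in the same 4 embryos, and their values stand beside those of the members. Ttr, transthyretin, the carrier of thyroid hormone, which is also made in the yolk sac and choroid plexus, was the single gene of the 14 other plasma protein genes tested that passed the threshold. Ttr stood at 14.4 and 15.1 FPKM in the KO KOAC8-6 and KOAC10-8 and at 46.4 and 53.1 FPKM in the WT KOAC8-1 and KOAC9-1, a log2 fold change of -1.68 ± 0.10 (SE, limma adjusted p = 0.0415). In the low-Afp embryos it was at 15.3 FPKM in the KO KOAC10-5 and 32.3 and 35.3 FPKM in the WT KOAC10-7 and KOAC10-2. Ttr was thus below every WT value in all 3 KO embryos and did not follow the Afp split. Over the 7 embryos its adjusted p was 0.0891, and among the 4 the call was lost when any 1 embryo was left out, with adjusted p from 0.0774 to 0.209.

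All 12 definitive erythroid genes had both KO below both WT among the 4 embryos, with 0 called and a median log2 fold change of -0.81. By limma an unadjusted p under 0.05 with a lower level in the KO was found in 12 of 12, against 6.14% of all genes. Over all 7 embryos 12 of 12 had a log2 fold change below 0, with a median of -0.75. There 7 of them had an unadjusted p under 0.05 by limma, against 997 of the 16095 genes with a lower level in the KO. Their levels summed to 5937 and 6165 FPKM in the KO KOAC8-6 and KOAC10-8 and 12491 and 16693 FPKM in the WT KOAC8-1 and KOAC9-1. Hbb-bt, an adult beta-globin, was at 308 and 230 FPKM against 1040 and 1433 FPKM (log2 fold change -2.19 ± 0.23, SE, limma adjusted p = 0.18). The part of these cells in the levels of the secreted proteins was not tested. Beside the 21.8% of all genes with both KO below both WT and the 21.1% with both above, the other lists went both ways. Of 30 other plasma protein genes, 20 were below and 2 above, and of 11 metabolic enzymes 6 were below and 2 above. Of 19 liver transcription factors and surface or keratin genes 3 were below and 7 above, and of 8 visceral endoderm genes 2 were below and 2 above. For the macrophage genes it was 4 of 8 below and 0 above, for gut, lung and pancreas 1 of 8 below and 2 above, for heart 1 of 7 below and 4 above, for mesonephros 0 of 5 in either direction, and for trophoblast 0 of 3 below and 1 above.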

How the data were processed

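Expression was measured by RNA-seq in 7 whole E11.5 embryos, 3 KO and 4 WT by the labels. The authors made and deposited 1 FPKM value per gene and embryo. The submitters' processing notes name Salmon, DESeq2, MultiQC and the build GRCm38 as tools and build of the authors, giving neither role nor version. The authors also deposited a mean normalized signal per gene over the embryos, made from counts divided by size factors, which was used only to estimate counts from the steps between low FPKM values. The columns of the authors' own comparison (log2 fold change, its standard error, p-value and adjusted p-value) were not used. Relative depth ran from 0.819 to 1.224, and 0 FPKM columns were left unmapped.

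Genes averaging 1 FPKM or more were tested with limma 3.58.1 (lmFit, eBayes with trend) in R 4.3.3 on log2(FPKM + 1), adjusting p by Benjamini-Hochberg over the 16095 genes, at a threshold of 0.05. The steps were tested on simulated data. All members are named. Of the other lists, counts are given with up to 4 genes named, or more where genes without the ordering are listed beside them. Ttr, C3 and Hbb-bt were chosen after their values were seen. Some genes of these lists enter the counts only and are not reported here by name. Members and lists were chosen with earlier results of these data known. Positions come from GENCODE M21 on GRCm38 and promoters from RefSeq on GRCm38.p6. Alternatives were a pseudocount of 0.1, no filter, a minimum mean of 5 FPKM, median-ratio size factors, robust eBayes, the label prefix or the Afp class as a block, Afp boundaries of 25 and 100 FPKM, and leaving out each embryo. Division by Afp was added after seeing the data.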

Additional observations from a re-analysis of the deposited data

Results flagged for a closer look

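Among the 4 WT embryos, Apoa4 in KOAC10-2 lay far from the others, at 0.683 FPKM against 0.103, 0.0151 and 0 FPKM, and its gap to the nearest was 0.849 of the range of the group. It was the single case among 33 members examined, and chance gives about 1 in 20 groups.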

How the results depend on the processing

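The count of members lower in every low-Afp embryo was 30, and 30 or 31 under the Afp boundaries of 25 and 100 FPKM, median-ratio size factors and leaving out each embryo. The count with both KO below both WT was 23, with 22 after division by Afp and 23 with median-ratio size factors. It was 23 to 31 leaving out an embryo. There 1 embryo stands against 2, an ordering that is easier to meet, and its share of all genes was not counted. No member was called under any alternative of either comparison. Over 7 embryos the 6 genes called became 7 to 12 when an embryo was left out, with 12 without KOAC8-1. Alb went from 0.56 to -0.42 with the Afp class as a block and ran from -0.63 (without KOAC10-7) to 2.13 leaving out each embryo, with -0.25, -0.20 and -0.46 without KOAC8-6, KOAC10-8 and KOAC10-2. Serpinc1 ran from -0.82 to 0.05, with 0.04 without KOAC8-1. Among the 4 embryos, the 14 genes called became 8 without a filter on low values and 4 at a minimum mean of 5 FPKM, where more and fewer genes were tested, and 0 (without KOAC10-8) to 29 (without KOAC8-6) leaving out each embryo. The median of the members ran from -0.68 to -0.26. Of 264 comparisons of a member under an alternative in these 4 embryos, 257 kept their direction and 7 turned, all when an embryo was left out: Afp ran from -0.42 to 0.01, Apoe from -0.13 to 0.03, Trf from -0.41 to 0.01, Vtn from -0.39 to 0.02, Mttp from -0.14 to 0.18 (-0.01 without KOAC9-1) and Itih2 from -0.66 to 0.07. The causes of these shifts were not tested. The call of Ttr was also lost without a filter (adjusted p = 0.0538) and at a minimum mean of 5 FPKM (adjusted p = 0.0704). Embryos were not paired, because the labels do not say whether a shared prefix marks littermates. The label prefix as a block over 7 embryos, where KOAC9 holds 1 embryo, gave 7 genes called. Leaving out an embryo of the 4 leaves a genotype with 1, which limma then assumes to vary like the others. With 2 embryos per genotype, and 14 members under 10 estimated counts in at least 1 low-Afp embryo, small differences could not be resolved.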
